A study of Mus musculus with 32 samples.

Results

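The zinc-handling genes described here are 10 of the 13780 genes in a deposited table of mouse RNA-seq expression, chosen by name: 5 ZIP importers (Slc39a1, Slc39a6, Slc39a7, Slc39a8 and Slc39a14), 3 ZnT exporters (Slc30a2, Slc30a4 and Slc30a5) and the metallothioneins Mt1 and Mt2. All 10 were found in the table. The series models benign prostatic hyperplasia with hormones in C57/BL6 mice and holds 32 libraries in 8 groups of 4. Male mice were implanted under the skin with 25 mg of testosterone and 2.5 mg of oestrogen, abbreviated T+E2, for 2 weeks, and RNA of their AP (the anterior lobe of the prostate), their DLP (its dorsal and lateral lobes) and their prostatic urethra was profiled beside that of mice given no hormone. The other 2 groups are urogenital sinus (UGS), the embryonic tissue that gives rise to the prostate, taken from E16.5 male embryos and kept in culture, either for 6 days with testosterone or without hormone. All groups are wild type as far as the labels say, the ages of the mice are not given, and the labels do not say whether each library is a separate animal, so p-values measure the spread between libraries, which may be technical. Expression is in TPM, which corrects for transcript length and so allows levels of different genes to be compared.

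Zinc crosses membranes through ZIP proteins, which move it into the cytosol from outside the cell or from organelles, and ZnT proteins, which move it out of the cytosol into vesicles, organelles or the extracellular space. Metallothioneins are small cysteine-rich proteins that bind zinc and copper. Mt1 and Mt2 are switched on by Mtf1, a transcription factor that senses free zinc and binds short metal response elements, and also by glucocorticoids and oxidative stress. The prostate is known for a high zinc content and for secreting zinc and citrate into the seminal fluid, with differences between lobes and species.

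The sequences upstream of Mt1 and Mt2 are shown because these genes had the highest levels of the 10 and moved together below. Each window runs from 250 bases before to 50 bases after the RefSeq start (GRCm38.p6, a later build than the mm9 named for the deposited data). Capitals mark the core of the metal response element, searched as TGCACNC and TGCGCNC on both strands, with no overlap between the cores found in these windows.
Mt1, chr8:94178839-94179088, plus strand, before the start: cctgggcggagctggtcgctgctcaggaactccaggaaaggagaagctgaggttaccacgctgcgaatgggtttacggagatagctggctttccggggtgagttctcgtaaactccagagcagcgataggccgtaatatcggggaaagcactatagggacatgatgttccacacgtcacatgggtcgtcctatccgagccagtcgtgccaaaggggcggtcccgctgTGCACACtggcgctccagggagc
Mt1, chr8:94179089-94179118, plus strand, the first 30 bases after the start: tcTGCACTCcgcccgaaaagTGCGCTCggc
Mt2, chr8:94172368-94172617, plus strand, before the start: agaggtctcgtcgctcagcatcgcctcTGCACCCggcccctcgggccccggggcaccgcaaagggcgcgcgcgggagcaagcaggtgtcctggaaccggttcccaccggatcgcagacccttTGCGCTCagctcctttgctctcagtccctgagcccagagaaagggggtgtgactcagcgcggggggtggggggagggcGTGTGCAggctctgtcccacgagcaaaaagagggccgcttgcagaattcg
Mt2, chr8:94172618-94172647, plus strand, the first 30 bases after the start: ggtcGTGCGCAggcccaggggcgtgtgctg

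Mt1 held 3 cores in its 300-base window, all on the sense strand, the first beginning 23 bases before the start and the others at bases 3 and 21 after it. Mt2 held 4, with those beginning 223 and 128 bases before the start on the sense strand and those 50 bases before and at base 5 after it on the antisense strand. Of 32851 mouse promoter windows of this length, 25.7% held at least 1 core, 1.97% at least 3 and 0.517% at least 4. Windows were in the table for 8 of the 10 genes: Slc30a4 held 3 cores, Slc30a2 2, Slc30a5 1, Slc39a8 none at one annotated start and 1 at the other, and Slc39a1 and Slc39a7 none. A core is a match of letters in this window and is not evidence of binding. Elements outside the windows were not searched, so these are not counts of all elements of a gene. Positions refer to the annotated RefSeq start, and the start used in these tissues was not tested. For Mt2 and Slc39a1 the end of the window was not found near the beginning of a GENCODE M21 transcript, so their starts differ between annotations. For the other genes, Mt1 among them, the end was found there, but an offset from the first base was allowed. Their starts may therefore differ as well.

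**Figure D1:**
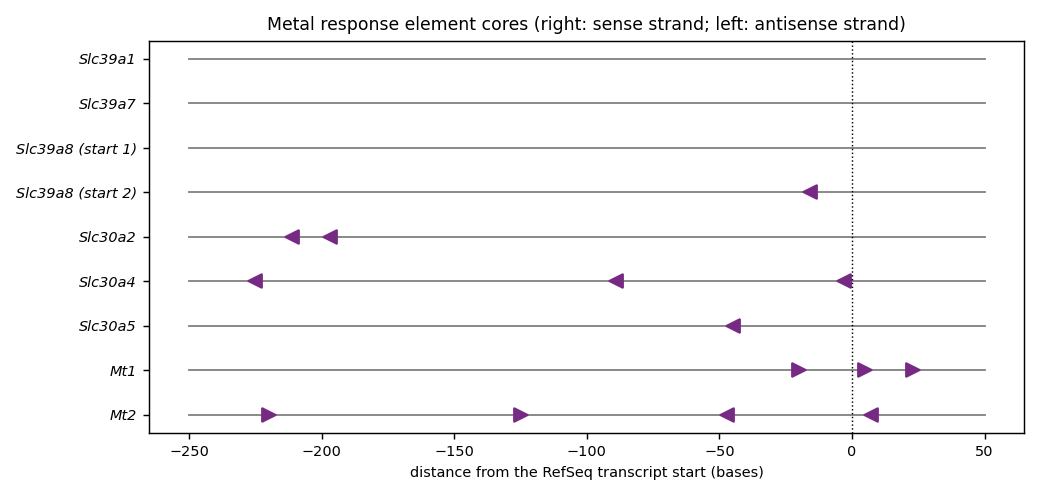
Position of each metal response element core (triangles, pointing right for the sense and left for the antisense strand) from 250 bases before to 50 after the RefSeq start, in bases, for the 8 zinc-handling genes with a window. Mt2 carries 4 cores, Mt1 and Slc30a4 carry 3 each, and Slc39a1 and Slc39a7 carry none.

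Library totals lay between 994133 and 997961 TPM, with 12289 to 13337 genes at 1 TPM or more, and read depth is not known because TPM keeps no counts. Marker lists matched the labelled tissues in part. Prostate luminal and secretory markers summed to at least 51283 TPM in untreated AP and DLP and to at most 1078 TPM in UGS, where 2 of the 8 markers were at 0 in every library. Skeletal muscle markers summed to 37069 to 61171 TPM in the urethra and to at most 2138 TPM elsewhere. Seminal vesicle markers, led by Svs2, Svs5 and Pate4, summed to 152486 to 266505 TPM in every DLP library and also stood high in AP T+E2 libraries 17 and 18 and AP control library 9, so DLP and these AP libraries carry RNA that the labels do not name. Results in AP are given without those 3 libraries, and results in DLP without T+E2 libraries 18 and 24, which had the most skeletal muscle transcripts, where the call or the size changed.

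In the untreated adult mouse, the AP stood highest for Mt1, Mt2, the importers Slc39a7, Slc39a8 and Slc39a14 and the exporters Slc30a2 and Slc30a5, and lowest for the exporter Slc30a4. The importer Slc39a6 was highest in DLP, and Slc39a1 was not called between untreated tissues. Under quantile normalization Slc30a5 was no longer called between AP and DLP (adjusted p = 0.997), and Slc39a1 was called lower in AP than in DLP (-0.16, adjusted p = 0.0076) and than in urethra (-0.13, adjusted p = 0.014). Of the 10 genes, 7 were higher and 2 lower in AP than in DLP, against 59.6% of all genes called (36.1% higher and 23.5% lower; limma, Benjamini-Hochberg adjusted p below 0.05). The corresponding counts were 7 higher and 1 lower in AP than in urethra, where 74.9% of all genes were called (41.4% higher and 33.4% lower), and 8 higher and 1 lower in DLP than in urethra, where 63.3% were called (33.8% higher and 29.5% lower). Most genes differ between these tissues, so the sizes of the differences, given below, describe the zinc-handling genes better than the counts. T+E2 lowered Mt1, Mt2, Slc39a8 and Slc39a14 in both prostate lobes. It raised Slc30a2 and Slc30a4 in AP. In AP 2 of the 10 rose and 4 fell, against 34.5% of all genes called (21.6% higher and 12.9% lower). In DLP none rose and 4 fell, against 10.7% called (6.09% higher and 4.63% lower), and in the urethra none was called, against 0.362%. Testosterone raised 1 of the 10, Slc39a8, in cultured UGS, against 1.73% of all genes called (1.43% higher and 0.301% lower). In bulk tissue, fewer cells of a type and less RNA per cell cannot be told apart.

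**Figure D2:**
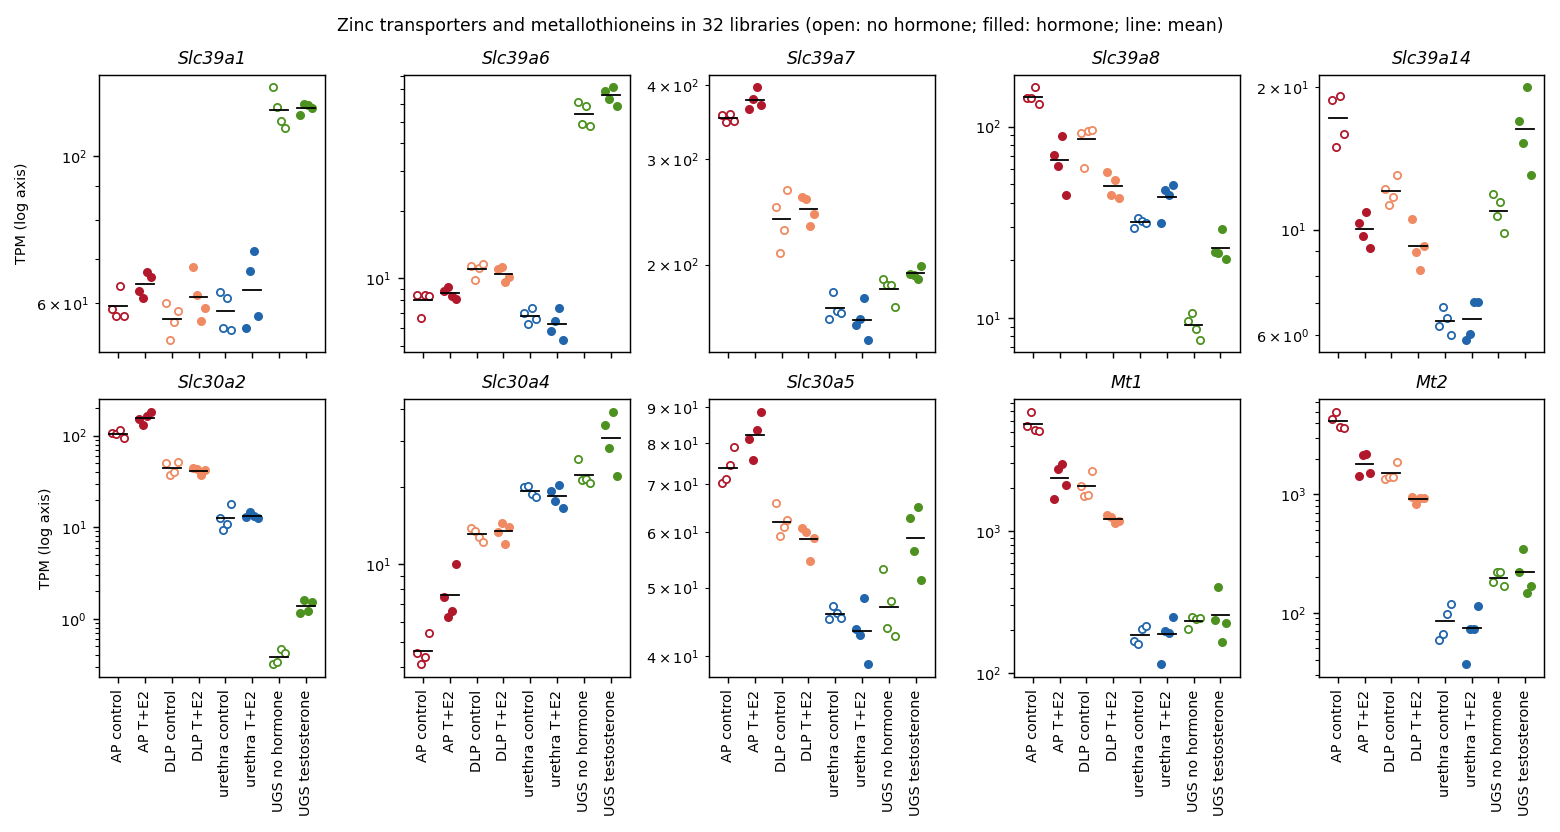
TPM of each of the 10 genes on a log axis, 1 panel per gene and 1 point per library, in the 8 groups of 4 libraries. Mt1 and Mt2 reach 6929 and 4985 TPM in untreated AP and go down to 36.8 TPM for the lowest urethral Mt2 value, while Slc39a1 stays between 52.9 and 71.8 TPM in every adult library.

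Mt1 and Mt2 bind zinc and copper in most tissues. Untreated AP libraries held 5045, 5186, 5510 and 6929 TPM of Mt1, a mean of 5668 ± 863 TPM (SD, n = 4), and DLP libraries 1757, 1803, 2089 and 2651 TPM, a mean of 2075 ± 411. The untreated urethra held 159, 167, 206 and 215 TPM. No group overlapped another: AP lay above DLP and DLP above urethra. Of all genes, 52.7% had no overlap between AP and DLP, 69.7% none between AP and urethra and 56.7% none between DLP and urethra. By mean TPM, Mt1 ranked 11th and Mt2 18th of all genes in untreated AP, and together they made up 0.985% of all TPM there, 0.360% in DLP and 0.0273% in urethra. On the log2(TPM + 1) scale, Mt1 was 1.46 ± 0.15 (SE) higher in AP than in DLP and 4.92 ± 0.15 higher in AP than in urethra. Mt2 was 1.46 ± 0.20 and 5.64 ± 0.20 higher in these comparisons, with adjusted p at most 4.23e-05 (limma). The ratio of Mt1 to Mt2 was 1.36 ± 0.05 in untreated AP, 1.37 ± 0.13 in DLP and 2.29 ± 0.44 in urethra. The genes are close paralogs, and how the authors' quantification divided reads they share was not tested.

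Under T+E2, Mt1 in AP was 1684, 2111, 2726 and 2975 TPM, every library below every untreated one. Its mean fell from 5668 ± 863 to 2374 ± 586 TPM, with a log2 fold change of -1.28 ± 0.18 (SE, limma adjusted p = 0.00032). Mt2 in AP was 1419, 1529, 2169 and 2176 TPM against 3627, 3740, 4301 and 4985 untreated, a log2 fold change of -1.21 ± 0.16 (adjusted p = 0.00027). The groups were apart for both genes, as they were for 34.4% of all genes in AP. In DLP the same pair also fell. Mt1 was 1140, 1183, 1258 and 1303 TPM with T+E2 against 1757, 1803, 2089 and 2651 without, a log2 fold change of -0.75 ± 0.13 (adjusted p = 0.0043). DLP Mt2 was 833, 927, 933 and 955 TPM with T+E2 against 1361, 1398, 1401 and 1882 without, a log2 fold change of -0.72 ± 0.11 (adjusted p = 0.0023). All treated DLP libraries lay below all untreated ones for both. The groups were apart, in either direction, for 16.3% of all genes in DLP. The treated DLP libraries also lay close together, with an SD of 73.4 TPM for Mt1 against 411 TPM untreated. The difference between the AP and DLP effects missed the threshold, at -0.53 for Mt1 (95% CI -1.11 to 0.04, adjusted p = 0.25) and -0.49 for Mt2 (95% CI -1.22 to 0.24, adjusted p = 0.44).

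In the urethra, Mt1 was 115, 191, 196 and 249 TPM with T+E2 and 159, 167, 206 and 215 TPM without, and the groups overlapped. The log2 fold changes there were -0.03 for Mt1 (95% CI -0.50 to 0.43) and -0.25 for Mt2 (95% CI -0.98 to 0.47), neither called. The effect on Mt1 was 1.25 ± 0.28 log2 units lower in AP than in urethra (limma adjusted p = 0.0019). For Mt2 the same difference, -0.95 ± 0.35, missed the threshold (adjusted p = 0.051) and was called under 10 of 26 alternatives. The comparisons with AP share the AP libraries. Between DLP and urethra the difference was called for neither gene, at -0.72 ± 0.28 for Mt1 (adjusted p = 0.17) and -0.46 ± 0.35 for Mt2 (adjusted p = 0.54). For Mt1 it was called under 2 of 26 alternatives. In UGS, Mt1 was 206 to 246 TPM without hormone and 165, 224, 237 and 403 TPM with testosterone, and Mt2 was 167 to 221 TPM and 147, 167, 220 and 348 TPM. Testosterone library C held the highest value of both genes, and neither was called (Mt1 log2 fold change 0.06 ± 0.22, adjusted p = 0.85, and Mt2 0.09 ± 0.24, adjusted p = 0.81).

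Several cell-type marker lists also differed between treated and untreated lobes, in both directions. In AP the 8 luminal and secretory markers summed to 53229 to 61599 TPM untreated and 15894 to 21446 TPM with T+E2. In DLP they summed to 51283 to 68757 TPM untreated and 30306 to 51142 TPM with T+E2, and in the urethra to 1454 to 16768 and 767 to 1533 TPM. Counted singly, 1 of these markers rose and 3 fell of the 7 tested in AP (median log2 fold change -0.29), and none rose and 1 fell of the 8 tested in DLP (median -0.17). The 5 urothelial markers in the table summed to 234 to 269 TPM in untreated AP and 838 to 1334 TPM with T+E2, and to 293 to 305 TPM and 681 to 843 TPM in DLP. Leukocyte markers summed to 269 to 402 TPM in untreated AP and 164 to 292 TPM with T+E2. In AP, T+E2 also lowered 4 of 6 smooth muscle markers and raised 3 of 6 fibroblast and 3 of 5 endothelial markers. Of 5 basal markers, 3 rose and 1 fell there. Over all genes in AP, 21.6% were called higher and 12.9% lower. In DLP, 1 of 5 basal and 1 of 5 endothelial markers rose, against 6.09% of all genes. The part of any of these markers in the fall of Mt1 and Mt2 was not tested. With the 3 AP libraries high in seminal vesicle markers left out, the AP log2 fold changes were -1.22 for Mt1 and -1.24 for Mt2 and remained called.

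Mt3, a metallothionein best known from brain and not one of the 10, moved in opposite directions in the lobes. Its AP level was 270 to 317 TPM untreated and 61.9 to 87.6 TPM with T+E2, a log2 fold change of -1.89 ± 0.11 (adjusted p = 5.38e-07). In DLP it was 19.5 to 29.5 TPM untreated and 31.2 to 46.4 TPM with T+E2, a log2 fold change of 0.69 ± 0.14 (adjusted p = 0.013). The groups were apart in each lobe, and the difference of the effects was -2.58 ± 0.42 log2 units (adjusted p = 0.00027). Mtf1, the zinc-sensing activator of Mt1 and Mt2, was 8.59 ± 0.82 TPM in untreated AP and 8.35 ± 1.08 TPM with T+E2, and it was not called in any hormone comparison.

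**Figure D3:**
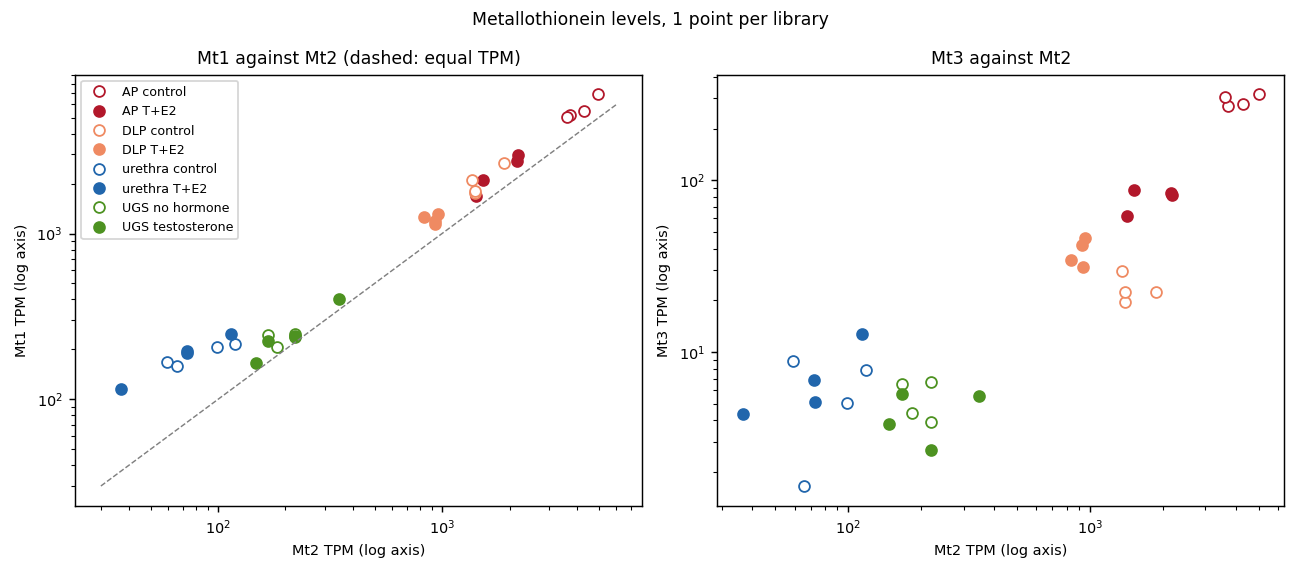
TPM of Mt1 (left) and Mt3 (right) against Mt2 on log axes, 1 point per library, with open points for untreated or hormone-free and filled points for hormone-treated libraries. Mt1 follows Mt2 across all groups, with, outside the urethra, group mean ratios of 1.17 to 1.37 and library ratios of 1.08 to 1.53, whereas Mt3 is higher with T+E2 in DLP and lower in AP.

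Among the importers, Slc39a8 and Slc39a14 varied most with hormones. ZIP8, made from Slc39a8, carries zinc, manganese and cadmium across the plasma membrane, and ZIP14, made from Slc39a14, is its closest relative and also carries iron. Slc39a8 in untreated AP was 131, 141, 141 and 161 TPM, and with T+E2 43.8, 62.4, 71.1 and 89.8 TPM. All treated libraries lay below all untreated ones, and the mean fell from 144 ± 12.5 to 66.8 ± 19.1 TPM (log2 fold change -1.14 ± 0.18, adjusted p = 0.00066). Slc39a8 in DLP was 60.5, 92.9, 95.04 and 96.5 TPM untreated and 42.6, 43.8, 52.7 and 57.7 TPM with T+E2. The lowest untreated library stood just above the highest treated one, and the log2 fold change was -0.78 ± 0.15 (adjusted p = 0.0090).

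The urethra gave the opposite direction for Slc39a8, without a call. Its values were 29.7, 31.2, 32.2 and 33.3 TPM untreated and 31.4, 43.8, 46.9 and 49.3 TPM with T+E2 (log2 fold change 0.41 ± 0.13, adjusted p = 0.19). Treated library 1 lay among the untreated ones, and without it the change was 0.55 and called (adjusted p = 0.013), as it was with sample weights (0.50, adjusted p = 0.0091). The difference of the T+E2 effect on Slc39a8 was -1.55 ± 0.25 log2 units between AP and urethra (adjusted p = 7.00e-05) and -1.19 ± 0.25 between DLP and urethra (adjusted p = 0.0062). Between AP and DLP it was -0.35 (95% CI -0.86 to 0.16, adjusted p = 0.43). Slc39a8 was the only one of the 10 called in the DLP and urethra difference, against 3.64% of all genes.

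Testosterone raised Slc39a8 in UGS, where hormone-free libraries held 7.70, 8.75, 9.58 and 10.6 TPM and testosterone libraries 20.2, 21.9, 21.97 and 29.1 TPM. The groups were far apart (10.8% of all genes did not overlap), with a log2 fold change of 1.25 ± 0.15 (adjusted p = 0.0029). The median over all genes in this comparison was 0.17, so the change relative to it was smaller, and it was 1.08 after median-of-ratios scaling. The summed luminal and secretory markers were 679 to 905 TPM without hormone and 589 to 1078 TPM with testosterone, and thus overlapped. UGS differs from adult tissue in age, culture and hormone at once.

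Slc39a14 fell in both lobes by less than Slc39a8. In AP it was 14.9, 15.9, 18.8 and 19.1 TPM untreated and 9.16, 9.69, 10.3 and 10.9 TPM with T+E2, with the groups apart (log2 fold change -0.72 ± 0.10, adjusted p = 0.00030). In DLP it was 11.3, 11.7, 12.2 and 13.0 TPM untreated and 8.24, 8.97, 9.25 and 10.5 TPM with T+E2, again apart (log2 fold change -0.35 ± 0.09, adjusted p = 0.026). The DLP call did not survive the removal of library 1, 2 or 24 of the treated group, or of library 9 or 10 of the controls, with adjusted p from 0.052 to 0.074 and log2 fold changes from -0.36 to -0.305. It was also lost without the 2 libraries with most skeletal muscle transcripts (-0.37, adjusted p = 0.079). In the urethra Slc39a14 was 6.01 to 6.89 TPM untreated and 5.87 to 7.05 TPM with T+E2, and the T+E2 effect there differed from that in AP by -0.73 ± 0.12 for AP against urethra (adjusted p = 0.00012). UGS values were 9.83, 10.7, 11.4 and 11.9 TPM without hormone and 13.1, 15.2, 16.9 and 20.0 TPM with testosterone. These groups did not overlap, yet the change of 0.52 ± 0.14 was not called (adjusted p = 0.10). It was called without testosterone library H (0.61, adjusted p = 0.018) and with sample weights (0.59, adjusted p = 0.0023). Only these 2 of 17 alternatives called it, and the lowest change among the 17 was 0.26.

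None of the remaining importers was called under T+E2 or testosterone. Slc39a1, which encodes the plasma membrane importer ZIP1, showed the flattest adult pattern, with group means from 56.8 to 64.0 TPM that all overlapped their neighbours in order. UGS held 110 to 127 TPM of Slc39a1, above every adult library. The median gene also stood 0.62 to 0.72 log2 units higher in hormone-free UGS than in untreated adult tissue. Slc39a6, which encodes ZIP6, a plasma membrane importer regulated by oestrogen in human breast cells, was 48.0 to 71.3 TPM in UGS and 5.34 to 11.6 TPM in all adult libraries. Its mean in hormone-free UGS was 4.94 times that of untreated DLP, 6.79 times that of AP and 7.94 times that of urethra. In UGS Slc39a6 was 48.0, 49.1, 58.7 and 61.1 TPM without hormone and 59.0, 63.0, 68.7 and 71.3 TPM with testosterone (0.27 ± 0.10, adjusted p = 0.13), while the median gene rose by 0.17. The change was called without testosterone library H (0.32, adjusted p = 0.047) and with sample weights (0.40, adjusted p = 0.0033). In all, 3 of 17 alternatives called it, and the lowest change among the 17 was 0.094. In untreated adults Slc39a6 was highest in DLP, by 0.42 ± 0.09 log2 units over AP and 0.61 ± 0.09 over urethra (adjusted p = 0.0013 and 4.25e-05).

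Slc39a7 encodes ZIP7, which releases zinc from the endoplasmic reticulum and Golgi. It had the highest level of the 8 transporters in every group, with 352 ± 5.65 TPM in untreated AP, 239 ± 25.2 in DLP, 169 ± 7.77 in urethra and 182 ± 8.49 in hormone-free UGS. AP exceeded DLP by 0.57 ± 0.07 and urethra by 1.06 ± 0.07 log2 units (adjusted p = 2.34e-05 and 1.26e-08). With T+E2, AP values were 365, 371, 379 and 397 TPM against 347, 348, 356 and 358 untreated. The groups lay apart, but the change of 0.10 ± 0.06 was not called (adjusted p = 0.20).

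Levels of the exporters Slc30a2 and Slc30a4 ran in opposite directions across tissues. ZnT2, from Slc30a2, loads zinc into secretory vesicles, and ZnT4, from Slc30a4, also fills vesicles and is the transporter lost in the lethal milk mouse. Slc30a2 spanned the widest range of the 10, with group means from 0.388 ± 0.070 TPM in hormone-free UGS to 157 ± 20.8 TPM in T+E2-treated AP. Untreated AP held 94.0, 104, 107 and 115 TPM of Slc30a2, DLP 36.8, 40.3, 49.9 and 51.3 TPM and urethra 9.42, 10.9, 12.7 and 17.9 TPM. The tissues did not overlap, and AP exceeded DLP by 1.23 ± 0.16 log2 units (adjusted p = 3.10e-05). Slc30a4 gave the reverse order, with 4.10 to 5.44 TPM in AP, 12.2 to 13.8 TPM in DLP and 18.3 to 20.1 TPM in urethra. It was 1.33 ± 0.08 log2 units lower in AP than in DLP (adjusted p = 9.26e-08). The ratio of Slc30a2 to Slc30a4 thus ran from 23.1 ± 4.07 in untreated AP through 3.43 ± 0.63 in DLP and 0.666 ± 0.220 in urethra to 0.0177 ± 0.0042 in hormone-free UGS.

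With T+E2 both exporters rose in AP. Slc30a2 was 132, 153, 163 and 182 TPM, every library above every untreated one (log2 fold change 0.57 ± 0.10, adjusted p = 0.0013). Slc30a4 was 6.27, 6.60, 7.46 and 10.1 TPM, above the untreated 4.10 to 5.44 TPM (log2 fold change 0.60 ± 0.14, adjusted p = 0.0074). Their ratio was 21.1 ± 2.74 with T+E2 and 23.1 ± 4.07 without, within the spread of the libraries. With the 3 AP libraries high in seminal vesicle markers left out the changes were 0.66 for Slc30a2 and 0.78 for Slc30a4, and both calls remained. The marker sums given above for AP moved in the same libraries, and their part in the rise of both exporters was not tested.

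In DLP, Slc30a2 was 36.9 to 44.0 TPM with T+E2 and 36.8 to 51.3 TPM without, and Slc30a4 12.02 to 14.5 TPM and 12.2 to 13.8 TPM. The groups overlapped for both, and the log2 fold changes were -0.10 (95% CI -0.34 to 0.15) and 0.04 (95% CI -0.13 to 0.21). The difference between the AP and DLP effects was called for both, at 0.67 ± 0.20 for Slc30a2 (adjusted p = 0.030) and 0.56 ± 0.15 for Slc30a4 (adjusted p = 0.015), as for 10.5% of all genes. Both calls were lost without the DLP libraries with most skeletal muscle transcripts (adjusted p = 0.11 and 0.096), and that for Slc30a2 under quantile normalization (0.58, adjusted p = 0.065). The call for Slc30a2 also did not survive the removal of treated library 24 or untreated library 9 or 10 in DLP, or of treated library 2 or 3 or untreated library 7 or 9 in AP (adjusted p from 0.052 to 0.074). Between AP and urethra the effect on Slc30a4 differed by 0.67 ± 0.15 (adjusted p = 0.0019), while that on Slc30a2 differed by 0.47 ± 0.20 and missed the threshold (adjusted p = 0.084). That comparison called 4 of the 10 genes and 24.4% of all genes.

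In UGS, Slc30a2 was 0.320, 0.340, 0.420 and 0.470 TPM without hormone and 1.15, 1.22, 1.54 and 1.62 TPM with testosterone. The groups were apart at levels near 1 TPM, the mean was 3.57 times as high with testosterone, and the change of 0.78 ± 0.16 on the log2(TPM + 1) scale, which understates low genes, just missed the threshold (adjusted p = 0.051). It passed with a pseudocount of 0.1 (1.60, adjusted p = 0.038) and without the filter on low genes (adjusted p = 0.0046), as well as with sample weights (adjusted p = 0.0026) and without the trend (adjusted p = 0.0056). These were 4 of the 12 alternatives in which the gene was tested. Slc30a4 in UGS was 20.8 to 25.6 TPM without hormone and 22.1, 28.3, 34.7 and 39.0 TPM with testosterone, with a change of 0.43 ± 0.17 (adjusted p = 0.13). Without testosterone library H, whose value of 22.1 lay within the hormone-free range, the change was 0.58 (adjusted p = 0.019), and with sample weights 0.59 (adjusted p = 0.0025). Only these 2 of 17 alternatives called Slc30a4, and the lowest change among the 17 was 0.21.

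**Figure D4:**
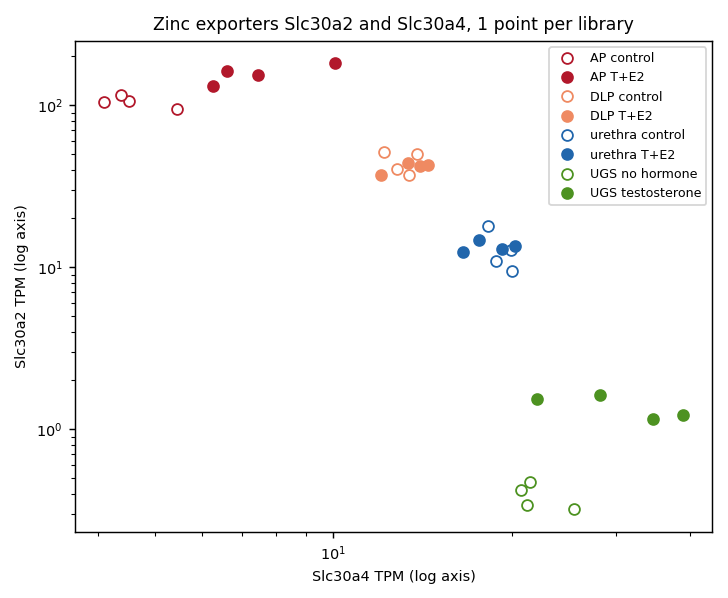
Slc30a2 against Slc30a4, both in TPM on log axes, 1 point per library, with open points for untreated or hormone-free and filled points for hormone-treated libraries. From AP through DLP and urethra to UGS, Slc30a2 declines while Slc30a4 increases in TPM, and in AP the T+E2 libraries lie above and to the right of the untreated ones. From untreated urethra to hormone-free UGS the mean of Slc30a4 rises 1.16 times, while the median gene stands 0.70 log2 units higher.

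Slc30a5 encodes ZnT5, which loads zinc into the early secretory pathway. It varied least over the groups, from 43.5 ± 3.86 TPM in treated urethra to 82.4 ± 5.35 TPM in treated AP. In AP it was 70.4, 71.4, 74.6 and 79.1 TPM untreated and 75.8, 81.3, 83.7 and 88.7 TPM with T+E2. These groups overlapped and the change of 0.15 ± 0.07 was not called (adjusted p = 0.11). It was called without T+E2 library 18 (0.19, adjusted p = 0.049), with the 3 libraries high in seminal vesicle markers left out (0.25, adjusted p = 0.037) and with sample weights (0.18, adjusted p = 0.048). Untreated AP exceeded DLP by 0.25 ± 0.05 log2 units (adjusted p = 0.0014), a difference that vanished under quantile normalization (-0.00026). UGS held 42.7 to 53.2 TPM without hormone and 51.3 to 65.0 TPM with testosterone (0.32 ± 0.10, adjusted p = 0.13), a change called without testosterone library H (0.38, adjusted p = 0.024) and with sample weights (0.43, adjusted p = 0.0023). In all, 3 of 17 alternatives called this UGS change, and the lowest value among the 17 was 0.14.

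**Figure D5:**
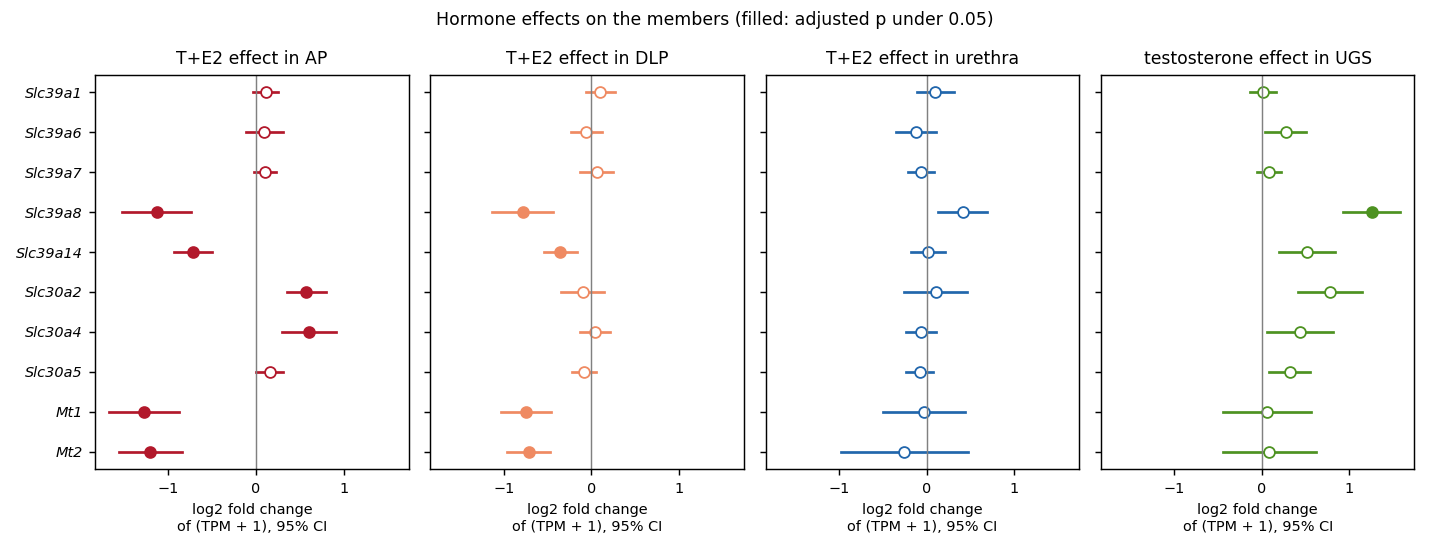
Log2 fold change of (TPM + 1) with its 95% confidence interval for each of the 10 genes under T+E2 in AP, DLP and urethra and under testosterone in UGS, 4 against 4 libraries each, with filled points for adjusted p below 0.05. Mt1, Mt2, Slc39a8 and Slc39a14 lie below 0 in both prostate lobes, Slc30a2 and Slc30a4 above 0 in AP, and Slc39a8 at 1.25 in UGS.

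The median log2 fold change of the 10 genes was 0.10 in AP, -0.09 in DLP, -0.05 in urethra and 0.30 in UGS, beside 0.07, 0.02, -0.04 and 0.17 over all genes. At an unadjusted p below 0.05, 1 of the 10 passed in the urethra, Slc39a8, as did 1908 of 12985 genes tested. In UGS 6 of the 10 passed, as did 4277 of 13304 genes tested.

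Other zinc transporters are given for comparison. Of 9 other ZIP genes 6 were in the table, and T+E2 changed 1 of them in DLP, where 10.7% of all genes were called, and 2 in AP, where 34.5% were called. Slc39a10, a plasma membrane importer, fell in DLP from 13.9 ± 0.50 to 10.6 ± 0.50 TPM (log2 fold change -0.36, adjusted p = 0.0068), a call lost without the 2 DLP libraries with most skeletal muscle transcripts (-0.37, adjusted p = 0.061). Slc39a4, the intestinal zinc importer mutated in human acrodermatitis enteropathica, fell in AP from 15.8 ± 1.42 to 10.8 ± 1.64 TPM (-0.52, adjusted p = 0.0041). In the urethra Slc39a4 was 6.41 to 7.72 TPM untreated and 8.54 to 21.99 TPM with T+E2, with the groups apart (0.86, adjusted p = 0.16, not called), and the difference of the T+E2 effect between AP and urethra was -1.38 ± 0.26 (adjusted p = 0.00046). Slc39a3, another importer, was 14.3 ± 0.75 and 16.7 ± 0.75 TPM in AP without and with T+E2 (0.21, adjusted p = 0.047), a call near the threshold that 10 of 17 alternatives did not keep. Of 8 other ZnT genes 4 were in the table, and 1 changed under T+E2: Slc30a9, in AP, from 22.4 ± 1.67 to 28.7 ± 1.26 TPM (0.35, adjusted p = 0.0045). None of either group was called in urethra or UGS by limma, where 0.362% and 1.73% of all genes were called. At an unadjusted p below 0.05, 3 ZIP and 1 ZnT genes passed in urethra, as did 1908 of 12985 genes tested. In UGS 3 ZIP and 2 ZnT genes passed, as did 4277 of 13304 genes tested.

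Between untreated tissues, Slc39a10 was highest in DLP and lowest in AP, at 6.91 ± 0.48 TPM in AP, 13.9 ± 0.50 in DLP and 10.3 ± 0.58 in urethra. Slc39a4 followed the order AP, DLP, urethra at 15.8 ± 1.42, 10.9 ± 2.06 and 7.06 ± 0.57 TPM. Slc30a1, the plasma membrane zinc exporter, was 5.07 ± 0.37 TPM in AP, 8.33 ± 0.24 in DLP and 7.01 ± 0.17 in urethra. Untreated Mt3 was 293 ± 22.4 TPM in AP, 23.4 ± 4.28 in DLP and 5.85 ± 3.24 in urethra, and Mtf1 8.59 ± 0.82, 7.03 ± 0.93 and 5.595 ± 0.23 TPM.

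Citrate-handling genes were listed because the prostate secretes citrate along with zinc. Of the 15 of 16 in the table, T+E2 changed 5 in AP, 3 higher and 2 lower, a share close to the 34.5% of all genes called there. None was called by limma in DLP, urethra or UGS, where 10.7%, 0.362% and 1.73% of all genes were called. At an unadjusted p below 0.05, 4, 4 and 1 of the 15 passed there. Of all genes tested, 3264 of 13108, 1908 of 12985 and 4277 of 13304 did so. Idh1, the cytosolic isocitrate dehydrogenase, fell in AP from 94.2 ± 4.71 to 45.5 ± 4.73 TPM (-1.04, adjusted p = 4.76e-06), and Aco1, the cytosolic aconitase, from 16.0 ± 0.69 to 11.2 ± 0.54 TPM (-0.49, adjusted p = 0.00053). Got2, an enzyme of the malate-aspartate shuttle, rose by 0.36 (adjusted p = 0.0020). Of these genes 12 of 15 were lower in untreated AP than in urethra, against 33.4% of all genes, and 10 of 15 lower in DLP than in urethra, against 29.5%. Idh3a, a subunit of the mitochondrial isocitrate dehydrogenase, was 23.4 ± 1.43 TPM in AP, 24.2 ± 2.51 in DLP and 261 ± 31.4 in urethra, the tissue with the high skeletal muscle marker sums, whose part in this difference was not tested. Ank, a citrate exporter, was 53.5 ± 3.22 TPM in DLP, 57.2 ± 7.14 in urethra and 7.32 ± 6.66 in AP, where the libraries varied widely. Its log2 fold change for untreated AP against DLP was -2.98. Over 18 alternatives the change ran from -3.45 to -2.37 and was called in each.

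Of 15 copper, iron and manganese genes, T+E2 raised 2 and lowered 1 in AP, against 21.6% and 12.9% of all genes, and raised none and lowered 1 in DLP, against 6.09% and 4.63%. None was called by limma in urethra or UGS, where 0.362% and 1.73% of all genes were called. At an unadjusted p below 0.05, 2 and 8 of the 15 passed there, as did 1908 of 12985 and 4277 of 13304 genes tested. Atp7a, a copper pump, rose in AP from 8.31 ± 0.88 to 12.2 ± 1.59 TPM (0.50, adjusted p = 0.0053).

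Genes that respond to glucocorticoids or to stress were listed because both are known to induce metallothioneins; their part in the changes of Mt1 and Mt2 was not tested. Of 13 glucocorticoid-responsive genes, T+E2 raised 4 and lowered 2 in AP, against 21.6% and 12.9% of all genes, and raised 2 and lowered none in DLP, against 6.09% and 4.63%. Fkbp5, a co-chaperone gene that also responds to androgen, rose in AP from 38.7 ± 10.8 to 67.9 ± 4.71 TPM (0.83, adjusted p = 0.0019), and Ddit4 fell from 90.5 ± 27.1 to 45.3 ± 5.32 TPM (-0.94, adjusted p = 0.0047). Errfi1, an inhibitor of epidermal growth factor receptor signalling, rose in both lobes, by 0.78 in AP (adjusted p = 7.63e-05) and by 0.58 in DLP (adjusted p = 0.00072). In UGS 7 of the 13 rose and none fell, against 1.43% and 0.301% of all genes, with a median of 0.64 beside 0.17 over all genes, led by Zbtb16 from 0.198 ± 0.142 to 7.73 ± 4.06 TPM, Fkbp5 from 16.6 ± 2.88 to 78.9 ± 10.7 TPM and Klf9 from 3.60 ± 1.03 to 19.9 ± 7.01 TPM. The hormone given in these cultures was testosterone, and whether the 7 genes rose through a glucocorticoid response was not tested. Mt1 and Mt2 were not called in the same libraries. The 95% CIs of their log2 fold changes were wide, at -0.44 to 0.57 for Mt1 and -0.44 to 0.61 for Mt2. A link between the rise of the 7 genes and the levels of Mt1 and Mt2 was not tested. Of 12 oxidative and heat stress genes, T+E2 raised 5 and lowered 4 in AP and raised 3 and lowered 1 in DLP, beside the same shares of all genes in each lobe. The glutathione synthesis genes Gclm and Gclc rose in AP by 0.63 and 0.62 (adjusted p = 0.0018 and 0.00092), while the heat shock genes Dnajb1 in AP and Hsph1 in DLP fell by 0.73 and 0.65 (adjusted p = 0.0076 and 0.0064).

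Across all 32 libraries, Mt1 was most like Mt2 of all genes in the table, with a Pearson r of 0.982 on the log2(TPM + 1) scale, and the genes next in likeness included Rnf149 at 0.977, Atp12a at 0.974 and Gm19461 at 0.974. Slc30a2, the gene with the widest range of group means, was most like H47 at 0.991, Tmed3 at 0.990, Tmem66 at 0.989, Sil1 at 0.988 and Camk2b at 0.985. Within the 10 genes, Slc30a2 and Slc30a4 had an r of -0.858 and Slc39a7 and Slc30a5 an r of 0.930. These values describe the libraries, which share tissues, treatments and, within a tissue, cell composition, and the 8 group means set most of each r.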

How the data were processed

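The authors deposited 1 table of TPM values, in which 13780 genes are rows and 32 libraries are columns. The submitters' processing notes name FastQC, STAR, RSEM and edgeR, and the build mm9; versions and roles are not given in the sources used here. Because TPM values are not counts, no count model was used. Each comparison was fitted with limma 3.58.1 (R 4.3.3) on log2(TPM + 1), with an intensity trend in the empirical Bayes step, over all genes at 1 TPM or more in at least 4 libraries of the fit, and p-values were adjusted by Benjamini-Hochberg over those genes. T+E2 and testosterone effects were fitted within each tissue (8 libraries), differences of effects over the 24 adult libraries and untreated tissues over 12. The fit was tested on simulated data. The 10 genes, gene lists and tests were chosen with earlier results of these data known. All 10 genes are reported in every comparison, and up to 4 called genes per other list, by largest absolute change; some genes that met these rules are not reported here. Alternatives were other pseudocounts, filters, scalings, sample weights, no trend, a replicate block and left-out libraries. Same-numbered adult libraries of different tissues correlated between -0.15 and 0.21 in their deviations from group means, with 6 of 15 pairs over 0.1. Different-numbered libraries were not compared, so these values cannot show whether a shared number marks the same animal. The labels do not say so either, and numbers were not taken as pairs in the main fits. Promoter windows came from RefSeq (GRCm38.p6). Figures were drawn with matplotlib 3.10.9.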

Additional observations from a re-analysis of the deposited data

Results flagged for a closer look

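In 5 of the 80 groups of 4 libraries, 1 library lay far from the other 3, with a gap to the nearest of them above Dixon's 95% critical value for 4 samples; chance gives about 1 in 20. Slc39a6 was 6.67 TPM in AP control library 7, against 8.36 to 8.48 in the others, and Slc39a8 was 60.47 TPM in DLP control library 7, against 92.91 to 96.48. Mt2 was 1882.08 TPM in DLP control library 9, against 1360.87 to 1401.21. Hormone-free UGS library A held the highest Slc30a4, at 25.55 TPM against 20.77 to 21.48, and the lowest Mt1, at 205.61 TPM against 240.08 to 246.17.

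The T+E2 effect differed between tissues, by the test of the difference itself (limma, Benjamini-Hochberg adjusted p), in 7 results of the 10 genes and 2 of Mt3. Between AP and DLP the difference was 0.6705 log2 units for Slc30a2 (adjusted p = 0.0297), 0.5631 for Slc30a4 (adjusted p = 0.01516) and -2.5772 for Mt3 (adjusted p = 0.0002652). Between AP and urethra it was -1.5454 for Slc39a8, -0.7291 for Slc39a14, 0.6663 for Slc30a4, -1.2472 for Mt1 and -2.2159 for Mt3. Between DLP and urethra it was -1.1946 for Slc39a8.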

How the results depend on the processing

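Of 44 called results of the 10 genes, 40 stayed called in the same direction under every one of 17 to 27 alternatives. The others were Slc39a14 in DLP, the AP and DLP differences of Slc30a2 and Slc30a4, and Slc30a5 in untreated AP against DLP. Of 131 called results of genes on the other lists, the largest 4 per list and comparison, 101 stayed called. The cause of each change below was not tested. The number of the 10 called became 1 in the urethra with sample weights (arrayWeights) and 0 to 1 with 1 library left out. In UGS it became 2 with a pseudocount of 0.1, without the filter or without the trend, 6 with sample weights, 3 with the replicate block and 1 to 5 with 1 library left out. For the AP and DLP difference it became 0 with the replicate block, 0 without the libraries with most skeletal muscle transcripts, and 1 to 3 with 1 library left out. It ran from 4 to 7 for AP against urethra with 1 library left out, and for DLP against urethra became 2 with median-of-ratios, quantile normalization or sample weights and 1 to 2 with 1 library left out. All genes called in DLP against urethra moved from 490 to 707 with median-of-ratios and 893 with quantile normalization. For settings other than scaling, the share of all genes called is not given here. The counts therefore describe only how stable the calls were. With the replicate block, the AP and DLP differences were 0.50 for Slc30a2 (adjusted p = 0.28) and 0.42 for Slc30a4 (adjusted p = 0.12), not called, and UGS Slc39a6 (0.32, adjusted p = 0.024) and Slc30a5 (0.30, adjusted p = 0.036) were called; shared numbers are not known to pair libraries, and the UGS letters C and H, in both arms, had deviations correlating at 0.0865 and 0.626.

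Direction changed only where the change was near 0 or uncalled, with untreated Slc30a5 in AP against DLP (-0.00026, quantile) the exception. Under median-of-ratios these were UGS Slc39a1 (-0.17), Slc39a7 (-0.094), Mt1 (-0.12) and Mt2 (-0.095), urethral Mt1 (0.013) and untreated Slc39a1 in AP against DLP (-0.015) and urethra (-0.076). Under quantile normalization they were AP Slc39a7 (-0.0500), UGS Slc39a1 (-0.057) and untreated Slc39a1 (-0.16 in AP against DLP, -0.13 in AP against urethra, 0.030 in DLP against urethra). Under sample weights they were urethral Slc39a14 (-0.059) and Mt1 (0.011), UGS Slc39a1 (-0.0030) and untreated Slc39a1 (-0.00030 and -0.0062). With 1 library left out, the ranges crossing 0 were -0.000053 to 0.12 for Slc39a7 in DLP, -0.024 to 0.052, -0.017 to 0.27, -0.18 to 0.18 and -0.49 to 0.041 for Slc39a14, Slc30a2, Mt1 and Mt2 in urethra, -0.014 to 0.053, -0.18 to 0.25 and -0.16 to 0.25 for Slc39a1, Mt1 and Mt2 in UGS, and -0.0078 to 0.058 for untreated Slc39a1 in AP against urethra.

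Scaling moved the split of all calls, from 2706 higher and 1617 lower in AP to 2174 and 2305 (median-of-ratios) or 1982 and 2626 (quantile), from 798 and 607 in DLP to 981 and 1260 (quantile), and from 190 and 40 in UGS to 170 and 93 or 167 and 133. Read depth is unknown, so no limit of detection was set for Slc30a2 in UGS.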
